A study of Rattus norvegicus with 2 samples.

Results

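The genes described here encode the TGF-beta and BMP signaling system, 37 in all, chosen by name from the 17337 genes of the deposited table. They comprised ligands, receptors, Smad proteins, secreted antagonists and targets. Of the 37 genes, 36 had a row in the table and 22 reached 30 reads in either library, the floor used below for ratios. Another 14 were measured under that floor in both libraries, and Skil had no row of its symbol and was not analysed here. None of the 36 had annotated exons that overlap those of another gene of the table. The study followed acetabular cartilage of Wistar rats after hip dislocation. The DA-DDH library combined RNA of 5 rats, 3 weeks old, whose hind limbs had been swaddled with both hips straight and adducted for the first 10 days of life and which moved freely thereafter. The control library combined RNA of 4 rats of 3 weeks that were never restrained. Sex was not evaluated, and the cartilage was taken by microdissection, with neighboring tissues avoided.

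TGF-beta and BMP proteins are secreted dimers that bring together type I and type II receptor kinases on the cell surface. TGF-beta and activin receptors phosphorylate Smad2 and Smad3, BMP receptors phosphorylate Smad1, Smad5 and Smad9, and both sets of receptor Smads enter the nucleus with the common partner Smad4. In cartilage, BMP signals drive chondrocyte differentiation and matrix synthesis, TGF-beta signals restrain terminal maturation, and secreted antagonists such as gremlin and chordin limit how far BMPs reach.

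The DA-DDH library held 833869 recovered reads and the control library 796723, and the 36 measured genes took 0.198% of the DA-DDH and 0.155% of the control reads. A single gene, Col2a1, took 11.4% of the DA-DDH and 29.3% of the control reads, so the libraries were scaled by TMM, which sets such genes aside. Levels are CPM, that is, reads as counts-per-million of the TMM-scaled library, and ratios are log2 of DA-DDH over control. Each condition had 1 library, so no difference could be checked against replicates and no test of the conditions was made. Scaling by total counts instead puts every log2 ratio 0.43 higher, so ratios less than 0.43 below 0 change sign with it, those of role sums included. Intervals are 95% exact intervals of counting error alone, so variation between animals and between libraries comes on top of them. In these bulk libraries, fewer cells of a type and less RNA per cell cannot be told apart. The labelled tissue was checked against 11 cartilage markers, all of them at the floor and below 0, with 112683 summed reads in the DA-DDH and 263191 in the control library (log2 ratio -1.72, interval -1.73 to -1.71). Most of these reads were of Col2a1. The median log2 ratio of the 11 genes was -1.27, with a range from -1.79 to -0.80.

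As a set, the TGF-beta and BMP genes differed little between the libraries. Their summed reads were 1652 in the DA-DDH and 1232 in the control library, or 1709.1 and 1792.5 CPM, a log2 ratio of -0.07 with an interval from -0.18 to 0.04. The 22 genes at the floor had a median log2 ratio of 0.04, against 0.03 for all 4375 genes at that floor. Of the 22, 11 lay above 0 and 11 below, and 47.4% of all genes at the floor lay below. None was more than 2-fold higher in the DA-DDH library, where 4.82% of all genes were. Bmp5, Smad5 and Grem1 were more than 2-fold lower, 3 of 22, where 3.04% of all genes were, and over both directions 7.86% were past 2-fold. Grem1 sat on that line at -1.001, and Id2 lay just inside it at -0.97. Bmp5 and Smad5 reached the floor through the control library alone, with 31 reads each there. The floor thus favors a low ratio for both. The counting interval lay wholly below 0 for 5 of the 22 genes, against 14.1% of all genes, and wholly above 0 for 1, against 13.8%. The 16 other intervals spanned 0.

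**Figure D1:**
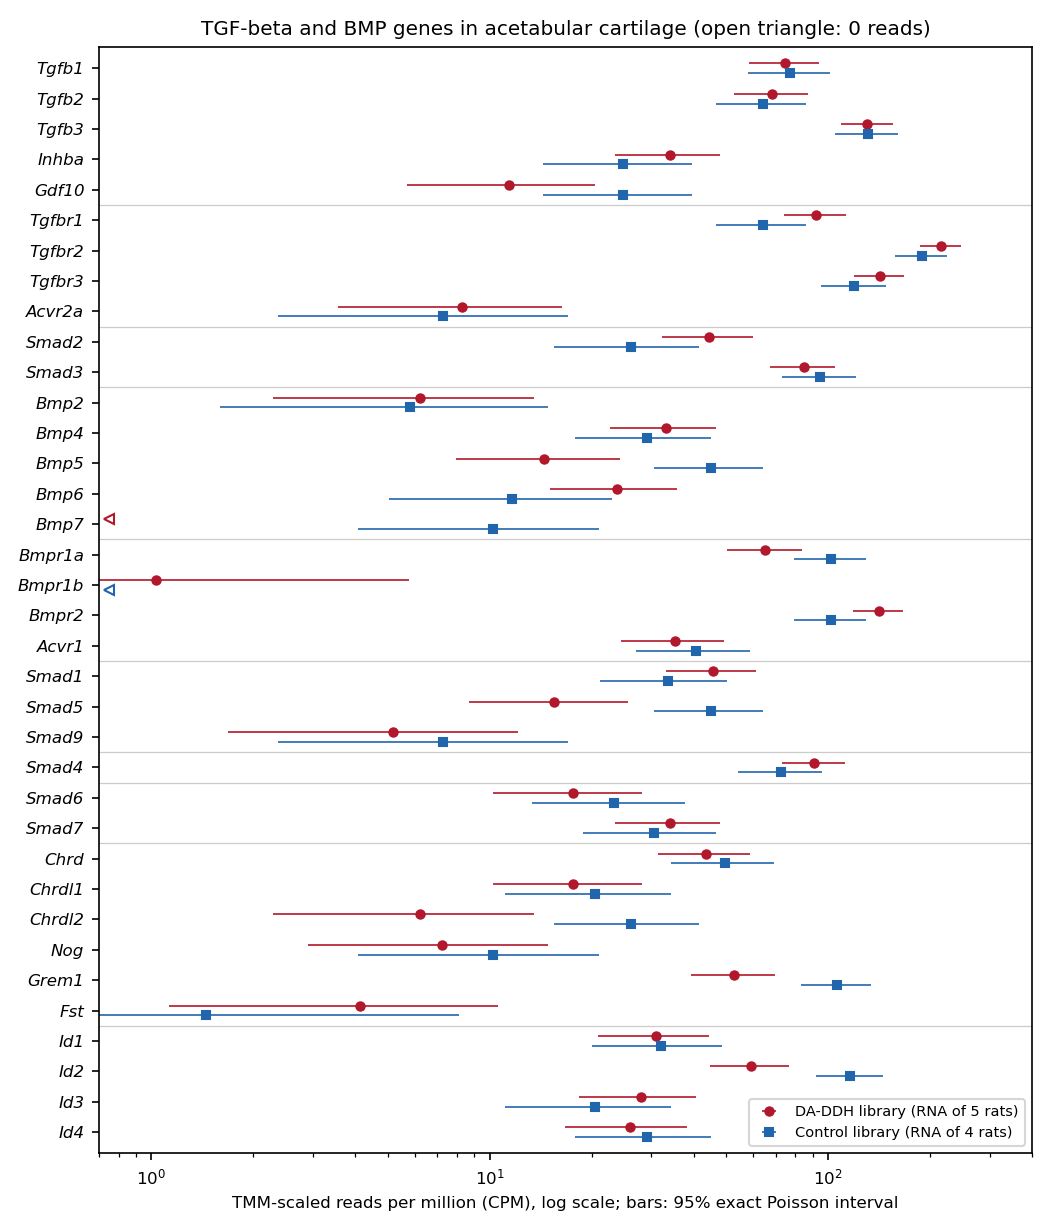
Level of each of the 36 measured genes in TMM-scaled CPM (log axis), with the DA-DDH library as circles and the control library as squares, bars for 95% exact Poisson intervals and open triangles for 0 reads. Tgfbr2 was the most abundant by reads, at 215 CPM in the DA-DDH and 189 CPM in the control library. The bars of the libraries stand clear of each other for Bmp5, Smad5, Grem1, Id2 and Chrdl2. Bmp7, with 0 reads in the DA-DDH library, has no bar there.

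The TGF-beta ligands were closest to equal. Tgfb1, which encodes the form stored in quantity in cartilage and bone matrix, had 72 reads in the DA-DDH and 53 in the control library, at -0.05 on the log2 scale (interval -0.58 to 0.49). Tgfb3, a ligand used to induce chondrogenesis in culture, had 126 DA-DDH and 90 control reads, at -0.01 (interval -0.41 to 0.40). Tgfb2, the remaining isoform, had 66 DA-DDH and 44 control reads, at 0.09 (interval -0.48 to 0.68). The balance among the isoforms moved little as well. Per exon length Tgfb1 made up 41.0% of the 3 isoforms in the DA-DDH and 42.3% in the control library, Tgfb3 39.9% in each, and Tgfb2 19.1% and 17.8%. Inhba, which encodes the subunit of activin A, had 33 reads in the DA-DDH and 17 in the control library, at 0.46 with an interval from -0.42 to 1.40. Gdf10, a BMP3-related ligand, stayed under the floor with 11 reads in the DA-DDH and 17 in the control library. All 5 ligands together had 308 DA-DDH and 221 control reads, at -0.01 (interval -0.27 to 0.24).

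The TGF-beta receptors were all a little higher in the DA-DDH library. Tgfbr2, the type II receptor that binds the ligand first, had 208 reads in the DA-DDH and 130 in the control library (log2 ratio 0.19, interval -0.14 to 0.51). Tgfbr1, the type I kinase that phosphorylates Smad2 and Smad3, had 89 DA-DDH and 44 control reads (0.52, interval -0.01 to 1.08). Tgfbr3, or betaglycan, a co-receptor that presents TGF-beta2, had 137 DA-DDH and 82 control reads (0.25, interval -0.16 to 0.66). Each interval spanned 0. Acvr2a, an activin and BMP type II receptor, had 8 DA-DDH and 5 control reads and stayed under the floor. The 4 receptors summed to 442 reads in the DA-DDH and 261 in the control library, at 0.27 with an interval from 0.04 to 0.49. Eng and Acvrl1, which encode the co-receptor endoglin and the receptor ALK1 of vessel walls and were listed as further pathway genes, showed larger differences. Eng had 212 reads in the DA-DDH and 85 in the control library (0.82, interval 0.46 to 1.21), and Acvrl1 had 51 DA-DDH and 16 control reads (1.16, interval 0.35 to 2.09). Markers of endothelium differed in the same direction. Their 9 listed genes, none of them at 0, summed to 1065 reads, or 1101.8 CPM, in the DA-DDH library and 338 reads, or 492 CPM, in the control library (1.16, interval 0.99 to 1.34), and all 8 at the floor lay above 0. The part of vessels in the receptor values was not tested.

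The intracellular mediators of that arm did not separate between libraries. Smad2 had 43 reads in the DA-DDH and 18 in the control library (0.75, interval -0.06 to 1.65), the highest ratio of all 22 genes. Smad3, which also binds DNA directly, had 82 DA-DDH and 65 control reads (-0.16, interval -0.64 to 0.34). Per exon length the level of Smad2 was 0.949 times that of Smad3 in the DA-DDH and 0.501 times in the control library, a shift of 0.92 on the log2 scale that needs no scaling between libraries and whose interval ran from -0.06 to 1.93. The common partner Smad4 had 88 reads in the DA-DDH and 50 in the control library (0.32, interval -0.19 to 0.85). Smad7, the inhibitory Smad that TGF-beta induces as its own brake, had 33 DA-DDH and 21 control reads (0.16, interval -0.67 to 1.02). Smad6, the inhibitory Smad more selective for BMP receptors, had 17 DA-DDH and 16 control reads, under the floor.

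**Figure D2:**
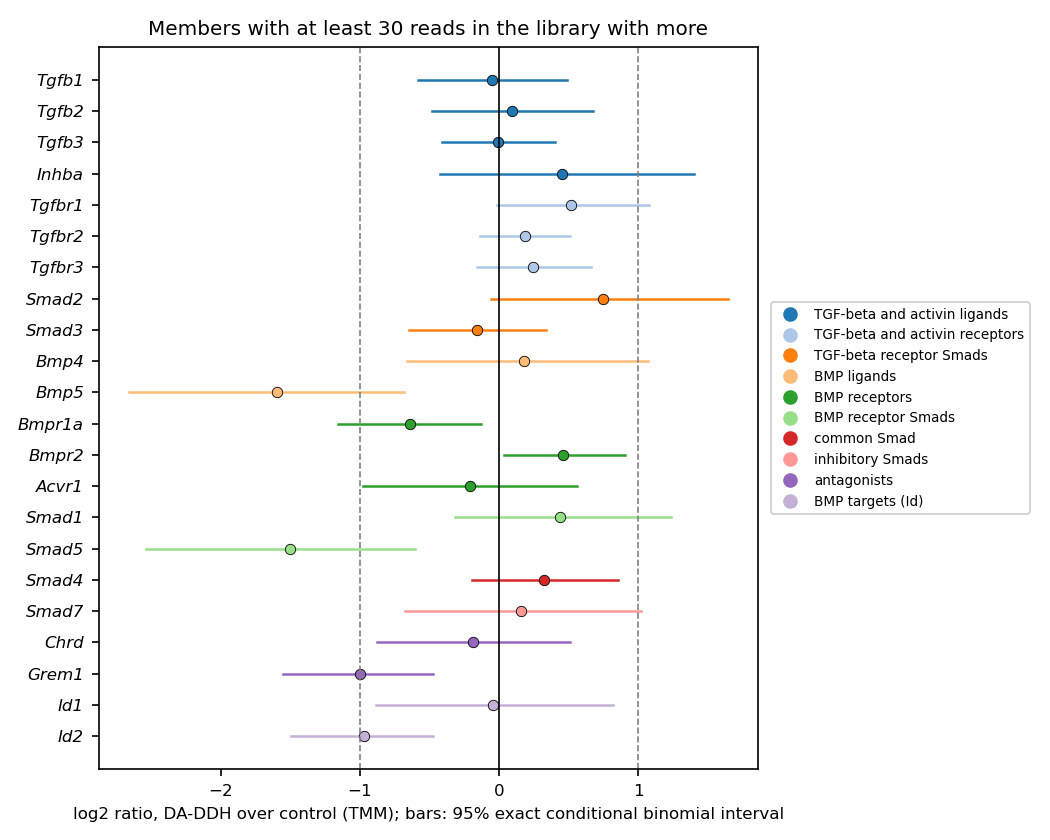
Log2 ratio of DA-DDH over control for the 22 genes that reached 30 reads in either library, colored by role, with bars for 95% exact conditional binomial intervals, a solid line at 0 and dashed lines at 2-fold. Bmp5 at -1.60 and Smad5 at -1.503 lie farthest out, and both reached the floor through the control library alone. Bmpr2 at 0.46 is the gene whose bar lies wholly to the right of 0.

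The BMP ligands were scarce and differed in direction. Bmp5 (rn6 chromosome 8, 82669466 to 82950273), a ligand needed for normal growth of skeletal elements, had 14 reads in the DA-DDH and 31 in the control library, or 14.5 and 45.1 CPM. Its log2 ratio was -1.60 with an interval from -2.66 to -0.69, that is 3.03-fold lower in the DA-DDH library, the lowest ratio of the 22 genes. Bmp4, a ligand of early and growing cartilage, had 32 DA-DDH and 20 control reads (0.18, interval -0.66 to 1.07). The other BMP ligands remained under the floor. Bmp6, made by hypertrophic chondrocytes, had 23 reads in the DA-DDH and 8 in the control library, and Bmp2 had 6 DA-DDH and 4 control reads. Bmp7 was detected in the control library alone, with 0 reads in the DA-DDH and 7 in the control library. A count of 0 allows up to 3 reads, a one-sided limit of 3.10 CPM in the DA-DDH library (the plotted two-sided interval ends at 3.82 CPM), so absence is not shown. The 5 ligands together had 75 reads in the DA-DDH and 70 in the control library (-0.39, interval -0.88 to 0.10). Relative to Bmp4, Bmp5 had 0.438 reads per Bmp4 read in the DA-DDH and 1.55 in the control library, a log2 difference of -1.82 (interval -3.17 to -0.50). Bmp5 reached the floor through the control library alone and Bmp4 through the DA-DDH library alone.

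The BMP receptors gave opposite signs. Bmpr1a (rn6 chromosome 16, 10758526 to 10802512), the main type I BMP receptor of chondrocytes, had 63 reads in the DA-DDH and 70 in the control library, or 65.2 and 102 CPM (log2 ratio -0.64, interval -1.16 to -0.13). Bmpr2 (rn6 chromosome 9, 66568074 to 66676494), the type II BMP receptor, had 136 DA-DDH and 70 control reads, or 141 and 102 CPM (0.46, interval 0.04 to 0.90). Both genes had 70 reads in the control library, whereas in the DA-DDH library Bmpr1a had 0.463 reads for each read of Bmpr2. This shift of -1.11 on the log2 scale has an interval from -1.79 to -0.43 and is free of the scaling. Acvr1, which encodes the type I receptor ALK2, had 34 DA-DDH and 28 control reads (-0.21, interval -0.98 to 0.56). Bmpr1b, a second type I receptor known for its role in early cartilage condensation in mice, had 1 read in the DA-DDH and 0 in the control library. The 4 receptors together were level, with 234 DA-DDH and 168 control reads (-0.01, interval -0.31 to 0.28).

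The receptor Smads of the BMP arm likewise lay on either side of 0. Smad5 (rn6 chromosome 17, 8312226 to 8322420) had 15 reads in the DA-DDH and 31 in the control library, or 15.5 and 45.1 CPM (log2 ratio -1.503, interval -2.53 to -0.61), which is 2.83-fold lower in the DA-DDH library. Smad1, which acts largely in parallel with Smad5 in cartilage, had 44 DA-DDH and 23 control reads (0.44, interval -0.32 to 1.24). Smad9 had 5 reads in each. Per exon length, Smad1 made up 55.2% of the 3 genes in the DA-DDH and 26.5% in the control library, whereas Smad5 made up 33.2% and 62.9%. Smad5 reached the floor through the control library alone and Smad1 through the DA-DDH library alone. The ratio of Smad5 to Smad1 differed by -1.98 on the log2 scale (interval -3.25 to -0.73). These genes have related sequences, and reads that fit more than 1 of them may have been counted otherwise by the authors. The 3 together had 64 reads in the DA-DDH and 59 in the control library (-0.37, interval -0.91 to 0.16).

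The secreted antagonists had the lowest summed ratio of the roles. Together they had 127 reads in the DA-DDH and 147 in the control library, a log2 ratio of -0.70 with an interval from -1.06 to -0.35. Among them Grem1 and Chrdl2 alone had fewer reads in the DA-DDH library, so the sum rests largely on these. Grem1, which encodes gremlin 1, an antagonist that binds BMP2 and BMP4 and marks articular chondrocyte precursors in mice, was the most abundant antagonist. It (rn6 chromosome 3, 105203309 to 105214989) had 51 reads in the DA-DDH and 73 in the control library, or 52.8 and 106 CPM (-1.001, interval -1.55 to -0.47). For each read of Bmp4 there were 1.59 Grem1 reads in the DA-DDH and 3.65 in the control library, a log2 difference of -1.20 (interval -2.24 to -0.17). Chrd, which encodes chordin, had 42 DA-DDH and 34 control reads (-0.18, interval -0.87 to 0.51). The remaining antagonists stayed under the floor. Chrdl2, a chordin-like protein of cartilage, had 6 reads in the DA-DDH and 18 in the control library, Chrdl1 had 17 DA-DDH and 14 control reads, Nog, which encodes noggin, had 7 in each, and Fst, which encodes the activin antagonist follistatin, had 4 DA-DDH and 1 control read. Each of the 11 cartilage markers lay further below 0 than the summed antagonists. Grem1 itself lay within the range of these markers, which ran from -1.79 to -0.80 with a median of -1.27. The part of the cartilage markers in the Grem1 value was not tested.

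**Figure D3:**
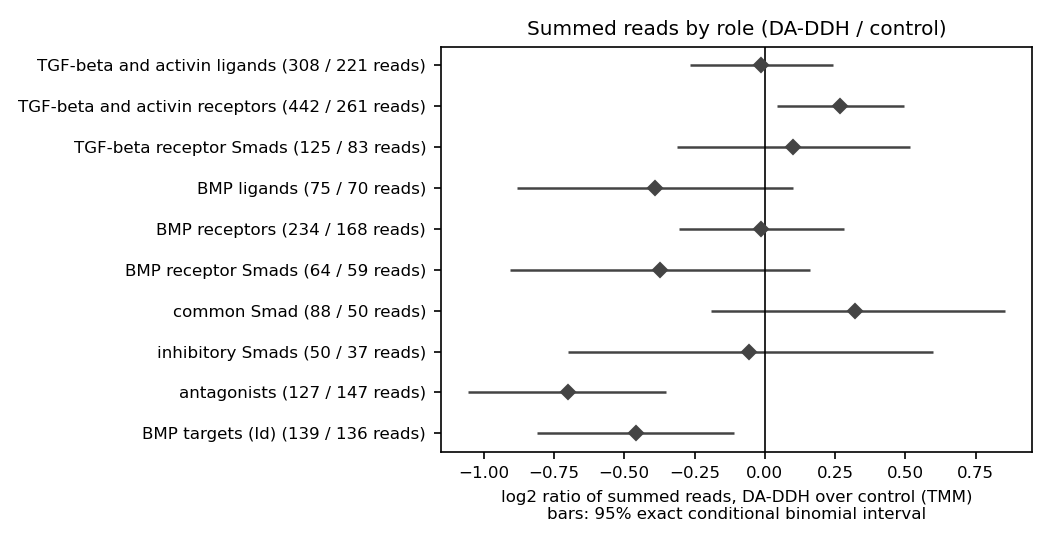
Log2 ratio of the summed reads of each role, DA-DDH over control, with 95% exact conditional binomial intervals and the summed reads of the DA-DDH and control libraries in the labels. The antagonists at -0.70 and the Id genes at -0.46 lie below 0 with their bars, and the TGF-beta and activin receptors at 0.27 lie above it. Among the Id genes Id2 alone had fewer reads in the DA-DDH library, and among the antagonists Grem1 and Chrdl2 alone.

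The Id genes, which encode inhibitors of differentiation, are the best known direct targets of Smad1 and Smad5 and serve as a readout of BMP signaling. They differed among themselves. Id2 (rn6 chromosome 6, 44360077 to 44361908) had 57 reads in the DA-DDH and 80 in the control library, or 59.0 and 116 CPM (log2 ratio -0.97, interval -1.497 to -0.47). Id1, the member that responds to BMP most widely, had 30 DA-DDH and 22 control reads, or 31.0 and 32.0 CPM (-0.04, interval -0.89 to 0.82). Id3 and Id4 were under the floor, with 27 reads in the DA-DDH and 14 in the control library for Id3, and 25 DA-DDH and 20 control reads for Id4. Per exon length Id2 was the highest of the 4 in both libraries, with 50.2% of their sum in the DA-DDH and 68.0% in the control library. The ratio of Id2 to Id3 differed by -1.44 on the log2 scale (interval -2.60 to -0.31), and that of Id2 to Id1 by -0.94 with an interval that reached 0 (-1.95 to 0.07). The 4 genes together had 139 DA-DDH and 136 control reads (-0.46, interval -0.81 to -0.11). Of the 4, Id2 alone had fewer reads in the DA-DDH library, so the sum lies below 0 through that gene.

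The promoters of Id2 and Id1, the Id genes at the floor, and of Grem1 are shown because these genes carry the differences and the absence of one just described. They are RefSeq sequences of build GRCr8, 250 bases before to 50 after the annotated start, 5′ to 3′ on the strand of the gene, with matches to GTCT (the letters of the short Smad-binding element) and to GGCGCC (those of a GC-rich Smad site of Id genes) in capitals on either strand, where GTCT reads AGAC on the other and GGCGCC reads the same. The windows are chr6:47470946-47471245 on the minus strand for Id2, chr3:161671314-161671613 on the plus strand for Id1 and chr3:120978270-120978569 on the minus strand for Grem1.
Id2: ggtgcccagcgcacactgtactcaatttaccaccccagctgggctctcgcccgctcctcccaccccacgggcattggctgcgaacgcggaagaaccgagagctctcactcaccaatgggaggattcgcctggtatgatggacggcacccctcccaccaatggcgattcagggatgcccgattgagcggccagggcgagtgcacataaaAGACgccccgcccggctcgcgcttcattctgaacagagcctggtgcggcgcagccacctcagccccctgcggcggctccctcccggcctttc
Id1: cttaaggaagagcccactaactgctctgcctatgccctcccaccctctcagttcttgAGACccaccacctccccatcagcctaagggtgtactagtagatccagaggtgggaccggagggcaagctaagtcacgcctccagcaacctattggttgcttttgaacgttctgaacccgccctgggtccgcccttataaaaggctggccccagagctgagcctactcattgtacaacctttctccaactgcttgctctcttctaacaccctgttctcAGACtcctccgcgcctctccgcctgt
Grem1: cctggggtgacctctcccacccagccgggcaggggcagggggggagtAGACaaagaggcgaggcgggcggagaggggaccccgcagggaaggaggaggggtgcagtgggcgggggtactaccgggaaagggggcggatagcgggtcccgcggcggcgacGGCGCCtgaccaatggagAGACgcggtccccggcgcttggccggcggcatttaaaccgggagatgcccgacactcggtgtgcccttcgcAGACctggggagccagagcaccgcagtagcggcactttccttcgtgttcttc

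In these windows Id2 had 1 match to GTCT, Id1 had 2 and Grem1 had 3, and GGCGCC occurred in Grem1 (1 match) but in neither Id gene. The letters GTCT are found in 88.8% of all 33469 promoters of the table and GGCGCC in 11.0%. Of the 30 listed genes with a promoter there, 24 had GTCT and 13 had GGCGCC in any of their promoters. These counts are by gene, whereas the shares above are by single promoter, so the measures are unlike. A match describes letters, not binding, and the windows do not reach the more distant Smad sites known for Id1.

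Set against each other, the arms differed slightly. The TGF-beta and activin arm of 11 ligands, receptors and receptor Smads had 875 reads in the DA-DDH and 565 in the control library (log2 ratio 0.14, interval -0.02 to 0.29), and its 9 genes at the floor had a median of 0.19, none past 2-fold. The BMP arm of 16 ligands, receptors, receptor Smads and Id genes had 512 DA-DDH and 433 control reads (-0.25, interval -0.44 to -0.06), and its 9 genes at the floor had a median of -0.21, with Bmp5 and Smad5 past 2-fold. For each read of the TGF-beta and activin arm the DA-DDH library held 0.585 reads of the BMP arm, against 0.766 in the control library, a log2 difference of -0.39 (interval -0.63 to -0.14) that needs no scaling. The BMP arm holds target genes and the other arm holds none. Without the Id genes, a comparison chosen after seeing the data, the BMP arm had 373 DA-DDH and 297 control reads and its interval spanned 0 (-0.16, interval -0.39 to 0.06), while its ratio to the TGF-beta and activin arm was 0.426 in the DA-DDH and 0.526 in the control library, a log2 difference of -0.30 (interval -0.58 to -0.03). Members within an arm differed more than the arms did, so the interval covers the counting of these sums only.

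**Figure D4:**
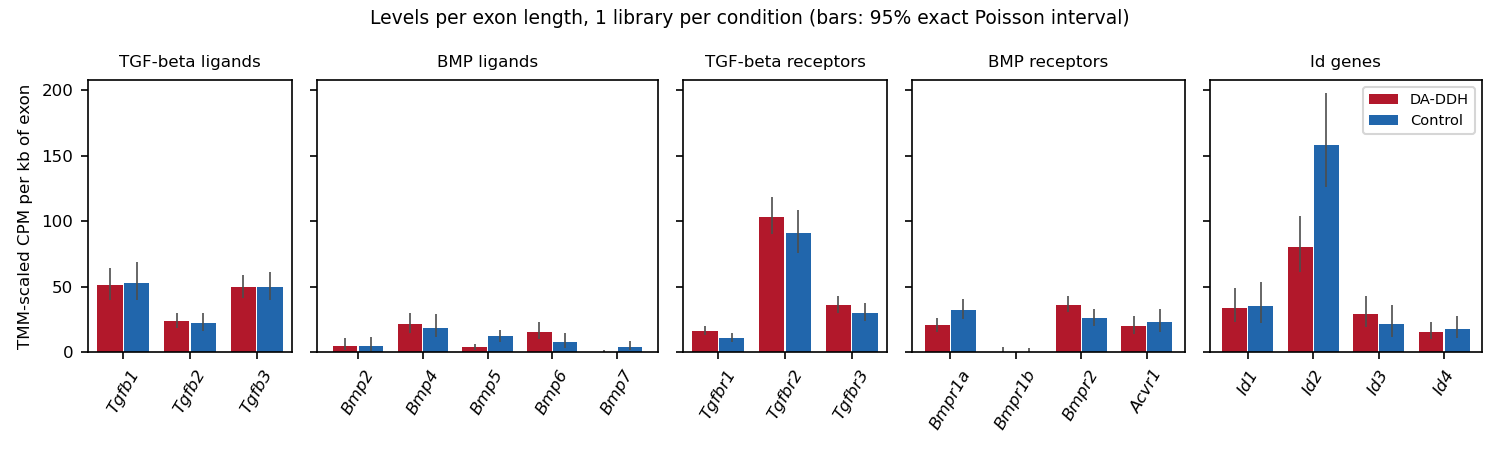
TMM-scaled CPM per kilobase of exon for 5 families, with the DA-DDH library left of the control library and bars for 95% exact Poisson intervals. Tgfbr2 stood at 104 in the DA-DDH and 91.0 in the control library, Id2 at 80.4 and 159, and the BMP ligands at most at 21.6 and 19.0, for Bmp4.

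Per exon length the families also differed in overall level. Tgfb1 stood at 51.1 CPM per kilobase in the DA-DDH and 52.9 in the control library, which is 1.03 and 1.06 times the level of Tgfb3 in the DA-DDH and control libraries. The most abundant BMP ligand, Bmp4, was at 21.6 in the DA-DDH and 19.0 CPM per kilobase in the control library, about the level of Tgfb2 at 23.8 and 22.3. Among the receptors Tgfbr2 stood highest, at 104 and 91.0 CPM per kilobase in the DA-DDH and control libraries, followed by Bmpr2 in the DA-DDH library (36.4) and by Bmpr1a in the control library (32.3). Tgfbr3 was next to them at 36.1 and 30.3, and the intervals of these neighbors overlapped within each library. Tgfbr1 was low for a partner of Tgfbr2, at 16.1 and 11.2.

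Several marker lists of other tissues differed between the libraries by more than the summed TGF-beta and BMP genes. Besides the endothelial list given above, skeletal muscle markers (11 genes, none at 0) summed to 2410 reads in the DA-DDH and 791 in the control library (log2 ratio 1.11, interval 1.00 to 1.23). Of these 11, all at the floor, 10 lay above 0 and Tnni2 lay below it at -1.10 (interval -1.44 to -0.78). Macrophage markers (10 genes, none at 0) summed to 613 DA-DDH and 168 control reads (1.37, interval 1.13 to 1.63), with all 4 at the floor above 0. Fibroblast markers (7 of 8 listed genes with a row, none at 0) summed to 2749 DA-DDH and 1899 control reads (0.04, interval -0.04 to 0.13), with 3 of the 5 at the floor having intervals above 0 and 1, Fap at -0.73, below it. Those of smooth muscle and pericytes (7 genes), with Cnn1 at 0 in the control library, had 1188 DA-DDH and 780 control reads (0.12, interval -0.02 to 0.25). Of the 6 at the floor 5 lay above 0, 2 of them with intervals above it. Cspg4, with 495 DA-DDH and 472 control reads, lay below it at -0.42 (interval -0.61 to -0.24). Erythroid markers (4 of 5 with a row, none at 0) had a lower sum, with 133 reads in the DA-DDH and 154 in the control library (-0.70, interval -1.05 to -0.36). Of the 2 at the floor, Slc4a1 lay at -1.45 (interval -2.16 to -0.80) and Hbb at -0.45 (interval -0.93 to 0.03). Those of osteoblasts and osteocytes (6 genes, none at 0) had 765 DA-DDH and 649 control reads (-0.25, interval -0.41 to -0.10). Of the 3 at the floor, 2 had intervals below 0 and Dmp1 lay at 0.07 (interval -0.41 to 0.55). Phex, under the floor, had 28 DA-DDH and 8 control reads. Osteoclast markers (4 of 5 with a row), with Calcr at 0 in each library, had 170 DA-DDH and 88 control reads (0.46, interval 0.08 to 0.85). Of the 2 at the floor, Ctsk lay at 0.90 (interval 0.37 to 1.46) and Acp5 at -0.15 (interval -0.74 to 0.45). The tendon markers (2 of 3 with a row, none at 0) had 192 DA-DDH and 164 control reads (-0.26, interval -0.57 to 0.05). The part of these tissues in the values of single TGF-beta and BMP genes was not tested.

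**Figure D5:**
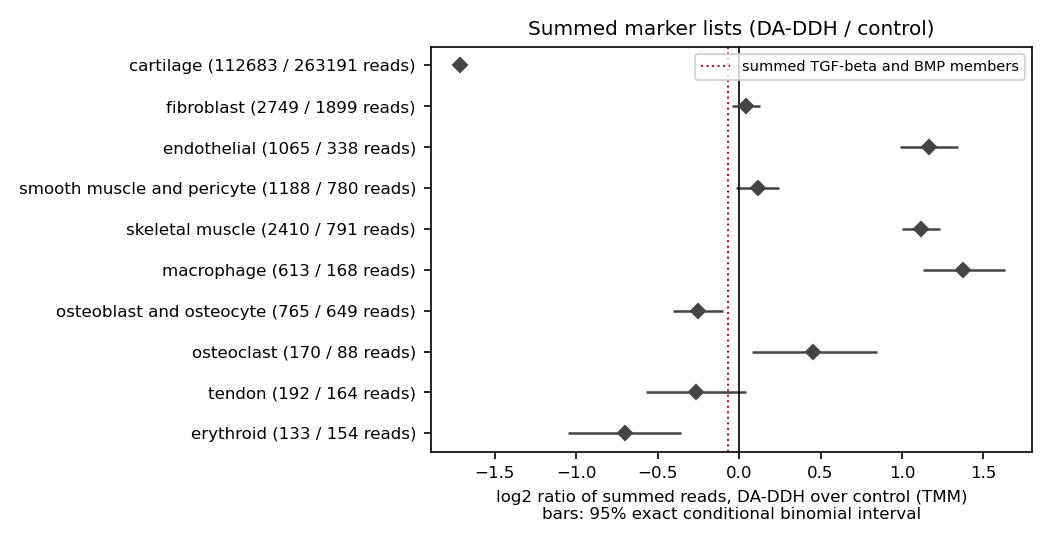
Log2 ratio of the summed reads of marker lists, DA-DDH over control, with 95% exact conditional binomial intervals, and a dotted line for the sum of the TGF-beta and BMP genes at -0.07. Cartilage markers lie at -1.72 and macrophage markers at 1.37, on either side of that line. Most of the cartilage reads were of Col2a1.

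Further genes of the pathway, 61 listed by role and 31 of them at the floor, gave a similarly divided picture. Of the 31, 15 lay above 0 and 16 below, with a median log2 ratio of -0.11. There were 4 more than 2-fold higher, Acvrl1, Gdf11 and Nbl1 among them, against 4.82% of all genes at the floor. Another 2 were more than 2-fold lower (Thbs1 and Junb), against 3.04%. Nbl1 at 1.003, Gdf11 at 1.03 and Thbs1 at -1.01 sat close to the 2-fold line. Among ligands, Gdf11, a relative of myostatin, had 35 reads in the DA-DDH and 12 in the control library (1.03, interval 0.07 to 2.13), and Bmp1, the procollagen proteinase that despite its name is no BMP, had 223 DA-DDH and 132 control reads (0.26, interval -0.05 to 0.59). Rgma, a BMP co-receptor, had 57 DA-DDH and 52 control reads (-0.36, interval -0.93 to 0.21). The other targets of the pathway differed among themselves. Of the 8 at the floor 4 lay above 0 and 4 below. The 12 listed targets summed to a log2 ratio of 0.01 (interval -0.09 to 0.11). The targets given next are all among those below 0. Ctgf, which encodes a matrix-associated growth factor, had 337 DA-DDH and 382 control reads (-0.67, interval -0.89 to -0.46). Junb, an AP-1 component that many stimuli induce, had 51 DA-DDH and 94 control reads (-1.36, interval -1.90 to -0.87), and Runx2, a regulator of hypertrophy and bone, had 62 DA-DDH and 79 control reads (-0.84, interval -1.35 to -0.34). None of the 5 intracellular regulators at the floor had an interval clear of 0. Their furthest were Ppm1a, a phosphatase of receptor Smads, at 0.77, Zfyve9, which anchors Smad2 at endosomes, at 0.37, Smurf2, a ubiquitin ligase of the pathway, at 0.20 and Hipk2 at -0.18.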

How the data were processed

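Acetabular cartilage RNA was pooled per condition, from 5 DA-DDH and 4 control rats, into 1 library each and sequenced as paired 75-base reads. The library kit is TruSeq Stranded mRNA in the methods, whereas the labels give a SMARTer Pico Input kit for total RNA. The submitters' processing notes name TopHat, Cufflinks and build rn6. The gene counter and its use of strand are not given in the sources used here. The deposited signal columns hold read counts that the authors multiplied by 1 factor per library, so 1 read is worth 0.855 in the DA-DDH and 1.20 in the control library. All values (100% in each library, relative tolerance 1e-06) were whole multiples of that step, and the reads were recovered by division. The table also holds the authors' fold changes, p-values, q-values and ranks, which were not used.

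Reads were scaled by TMM in edgeR 4.0.16 (R 4.3.3; factors 1.16 in DA-DDH and 0.863 in control). Log2 ratios used a prior of 0.5 reads, set in proportion to library size. The 4375 genes that reached 30 reads in either library entered counts and medians. Ratio intervals are 95% exact conditional binomial (Clopper-Pearson) intervals, which cover counting error only. No test of the conditions was possible with 1 library each. Every listed gene is accounted for, genes under the floor by reads only apart from plotted levels and shares, and up to 4 further pathway genes per role with the largest absolute ratio are named. The values of 1 gene that this rule names are not reported here. The genes and lists, and the ratios between pairs of genes, were chosen with earlier results of these data known. Other scalings tried were median-of-ratios (DESeq2 1.42.0), upper-quartile and total-count, beside the values as deposited, and other priors, floors and folds, and edgeR exact tests at assumed dispersions. The calculations were tested on simulated data. Intervals and figures were made in Python 3.11.15 with scipy 1.17.1, matplotlib 3.10.9, numpy 2.4.6 and pandas 2.3.3.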

Additional observations from a re-analysis of the deposited data

How the results depend on the processing

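Scaling was the choice that moved most values. Total-count scaling shifted every log2 ratio up by 0.43, and of the 22 genes at the floor 5 instead of 11 then lay below 0, with a median of 0.47 and with 1 gene, Smad2, past 2-fold higher and 2, Bmp5 and Smad5, lower. The summed antagonists stood at -0.28 and the Id genes at -0.03 under it, and the TGF-beta and activin receptors at 0.69. Upper-quartile and median-of-ratios scaling and the deposited values shifted ratios by -0.0028 to 0.0001. The 3 genes past 2-fold became 2 with a prior of 2 reads, which moved Grem1 inside the line, and 6 of 22 at a threshold of 1.5-fold. They were 5 of 29 genes at a floor of 10 reads, 8 of 36 at a floor of 1 read and 0 of 4 at a floor of 100 reads. The genes below 0 numbered 19 of 36 at a floor of 1 read and 1 of 4 at a floor of 100. Shares of all genes were taken at the main settings only, so these counts have no background beside them. An exact test of the libraries in edgeR passed 0 of the genes at an adjusted p under 0.05 with an assumed dispersion of 0.04, where 15 of 4375 genes passed, and 0 with one of 0.16, where 0 genes passed. It compares these libraries, not the conditions. No paired analysis was possible because each condition has 1 library. Leaving out a replicate was not possible for the same reason. At a floor of 100 reads 4 of the genes remained, so most ratios rest on fewer reads, and 16 of the 22 counting intervals spanned 0.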

Other observations

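Genes that store or activate TGF-beta in the matrix held far more reads than the ligands and differed unevenly. Of 7 latency and activation genes at the floor, 6 lay below 0, where 47.4% of all genes at the floor did, with a median log2 ratio of -0.35. The interval lay below 0 for 3, against 14.1% of all genes at the floor, above it for 1, against 13.8%, and spanned it for 3. Under total-count scaling only Thbs1 and Furin of the 7 stay below 0. The 10 with a row summed to 2110 reads in the DA-DDH and 2504 in the control library (-0.74, interval -0.82 to -0.65). Thbs1, which encodes thrombospondin 1, an activator of latent TGF-beta, gave most of that sum, with 1200 reads in the DA-DDH and 1722 in the control library (-1.01, interval -1.12 to -0.91). Furin, the protease that cleaves TGF-beta and BMP precursors, had 118 DA-DDH and 147 control reads (-0.81, interval -1.17 to -0.45). The latent TGF-beta binding proteins gave both signs, with Ltbp3 at -0.37 (313 DA-DDH and 287 control reads, interval -0.60 to -0.13) and Ltbp2 at 0.48 (132 DA-DDH and 67 control reads, interval 0.05 to 0.93).

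The 6 secreted binders and antagonists outside the main list that reached the floor split evenly, 3 with intervals above 0 and 3 below. Of all genes at the floor 13.8% had intervals above 0 and 14.1% below. Intervals narrow as reads grow, and the median gene at the floor had 64 reads in the library with more. The small proteoglycans Fmod, with 4347 reads in the DA-DDH and 5547 in the control library, and Bgn, with 4901 DA-DDH and 5007 control reads, lay at -0.84 (interval -0.90 to -0.79) and -0.52 (interval -0.58 to -0.47). Dcn, which encodes the related proteoglycan decorin, lay on the other side with 470 DA-DDH and 275 control reads (0.28, interval 0.06 to 0.50), as did Fstl1 with 882 DA-DDH and 534 control reads (0.23, interval 0.08 to 0.39). Twsg1, which encodes twisted gastrulation, a partner of chordin, was at -0.82 (30 DA-DDH and 38 control reads, interval -1.57 to -0.10). Nbl1, which encodes the BMP antagonist DAN, differed the other way, with 243 reads in the DA-DDH and 86 in the control library (1.00, interval 0.65 to 1.38), while Grem1 of the same protein family was at -1.001. The part of the lower cartilage markers in these values was not tested.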
